A study of Mus musculus with 4 samples.

Results

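Renin-producing juxtaglomerular cells made up 217 of the 40939 cells kept from 4 mouse kidneys. A barcode, the tag that marks 1 droplet and so usually 1 cell, was kept with at least 500 UMIs (unique molecular identifiers, each counting 1 captured RNA molecule), at least 300 genes and a mitochondrial share under 50%. Renin cells were chosen by measured UMIs, Ren1 first of all: each had at least 30 Ren1 UMIs per 10,000 UMIs and at least 1 detected gene of Akr1b7, Pdgfrb, Rgs5 and Acta2. It had no UMI of Ptprc, Pecam1 or Cdh5, and fewer than 10 UMIs per 10,000 of Umod and of Gpx3, so that leukocytes, endothelium, thick ascending limb and proximal tubule were left out. The 4 wild type mice all carry the label CIAKI, contrast-induced acute kidney injury, in which radiographic contrast medium impairs the kidney. All 4 libraries were treated as batch 1 in this work, and whether they were processed together was not tested. Fresh kidney was dissociated and sequenced on the 10x Genomics platform, with 1 library per mouse. The sources used here give no strain, sex, age, contrast agent or time after injury, and the samples analysed here include no uninjured kidney, so nothing below separates an effect of the injury.

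Juxtaglomerular cells lie in the wall of the arteriole that feeds the glomerulus and are modified smooth muscle cells. They make, store and secrete renin, the protease that cuts angiotensinogen and so starts the pathway to angiotensin II, which raises blood pressure. Prorenin enters the secretory route through the endoplasmic reticulum (ER) and is cut to active renin in lysosome-like granules. Cyclic AMP, raised by sympathetic nerves and prostaglandins, stimulates renin release, whereas calcium, angiotensin II and cyclic GMP acting through Prkg2 restrain it. Smooth muscle cells upstream of the glomerulus can take up renin expression when more is needed and lose it again.

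Mouse 3 gave most of the renin cells and mouse 4 almost none. There were 26 renin cells among 7085 cells in mouse 1, or 0.367% with an exact (Clopper-Pearson) 95% interval of 0.240 to 0.537%. Mouse 2 had 48 of 8858, or 0.542% (0.400 to 0.718%). Mouse 3 had 138 of 12904, or 1.07% (0.899 to 1.26%), which was 63.6% of all renin cells. Mouse 4 had 5 of 12092, or 0.0413% (0.0134 to 0.0965%). The mean share was 0.505% ± 0.430 (SD, n = 4 mice), so the spread between mice was nearly as large as the mean. All these intervals cover counting error only. The order changed when only vessel wall cells were counted. Ren1-negative mural cells, defined below, numbered 22, 48, 478 and 8 in mice 1 to 4. Of mural and renin cells together, renin cells made up 54.2, 50, 22.4 and 38.5%. By that measure mouse 3 was the lowest, though the interval of mouse 4 (13.9 to 68.4%) included its value. Mouse 4 also had the shallowest library, with a median of 2077 UMIs per cell against 5549 to 5815 in mice 1 to 3. The median renin cell held 10091, 12027, 9212 and 7116 UMIs in mice 1 to 4, above the median of all cells in each mouse.

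Ren1 itself, which the rule used, spanned a wide range within these cells, from 30.3 to 4217 UMIs per 10,000 UMIs. The median cell had 172, 213, 104 and 2336 Ren1 UMIs per 10,000 UMIs in mice 1 to 4. The highest cell had 3230, 3108, 2208 and 4217, so that in 1 cell of mouse 4 Ren1 took 42.2% of all UMIs. Summed over the renin cells of a mouse, Ren1 stood at 784, 808, 440 and 3000 per 10,000. Mouse 4, with 5 cells, was above the other mice, and mouse 3, with the most cells, was the lowest. Cells at 1000 per 10,000 or more numbered 6, 12, 14 and 3 in mice 1 to 4. The plot of Ren1 per cell shows a spread from 30 upward in mice 1 to 3; cells under 30 are not in it.

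**Figure D1:**
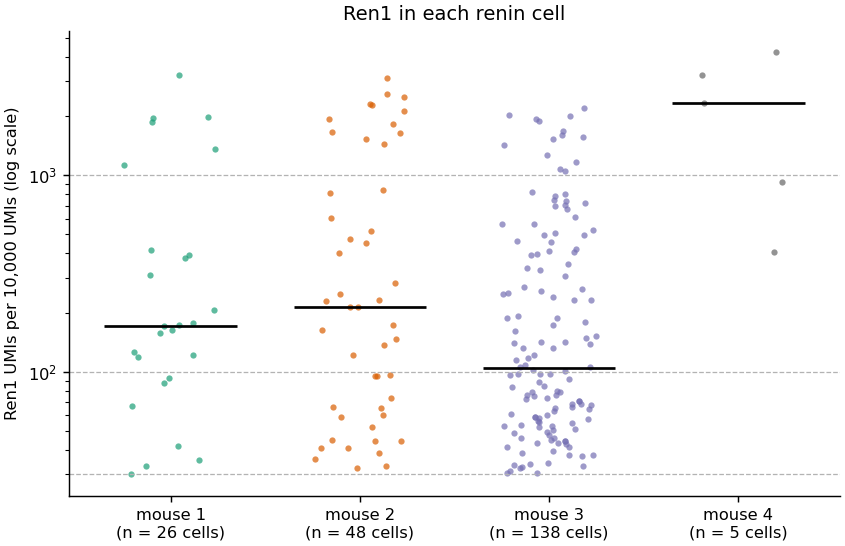
Ren1 UMIs per 10,000 UMIs (log axis) in each of the 217 renin cells, by mouse; black lines are medians (172, 213, 104 and 2336), and dashed lines mark 30, 100 and 1000. Mice 1 to 3 run from just above 30 to maxima of 3230, 3108 and 2208, and the 5 cells of mouse 4 lie above 400. Mouse 1 has no cell between 415 and 1129, and mouse 2 none between 836 and 1440.

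Ren1 was followed into its promoter because the gene carries a TATA box, the motif that places the start of transcription. The 250 bases before the RefSeq start of Ren1 (GRCm38.p6, chr1:133350424-133350673, plus strand) are shown with the match to TATAAA in capitals.
Ren1: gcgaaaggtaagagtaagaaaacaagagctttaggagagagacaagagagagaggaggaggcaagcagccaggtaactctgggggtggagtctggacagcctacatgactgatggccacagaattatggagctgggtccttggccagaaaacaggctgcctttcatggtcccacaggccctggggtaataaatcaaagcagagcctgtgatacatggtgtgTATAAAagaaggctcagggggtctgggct
The match begins 29 bases before the start. TATAAA, searched on both strands, was found in 12.97% of 27025 mouse promoter windows of the same length.

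The label was set beside marker genes, most of which the rule itself used. Akr1b7, an aldo-keto reductase of renin cells, was detected in 80.8, 85.4, 79.0 and 100% of the renin cells of mice 1 to 4. Its level, counted like all levels below as UMIs per 10,000 UMIs other than Ren1, was 61.1, 30.01, 64.1 and 551. In Ren1-negative mural cells, the smooth muscle cells and pericytes defined below, it was 0.351, 0.593, 2.25 and 0.251. Since Akr1b7 is in the rule, this is a description. All 4 of Akr1b7, Pdgfrb, Rgs5 and Acta2 were detected in 122 of the 217 cells, 3 of them in 68, 2 in 20 and 1 in 7. Rgs5, a regulator of G protein signalling in arteriolar wall cells, was found in 100, 97.9, 97.1 and 60% of the cells of mice 1 to 4. Its level was 35.1, 43.7, 25.9 and 4.74, against 43.6, 54.8, 35.7 and 1.51 in mural cells, so it was the lower in renin cells of mice 1 to 3. The comparisons described below tested 9 genes linked to juxtaglomerular cells that the rule did not use. Against smooth muscle, 2 were higher (Gata3 and Gja5) and 1 lower (Gja4), and against mural cells 1 was higher (Gata3). Over all genes tested, 1.37% were higher and 1.74% lower than in smooth muscle, and 0.932% higher than in mural cells. Dcn, a fibroblast gene that the rule did not use, had 4 UMIs in 3 cells of mouse 3 and none in the renin cells of the other mice.

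Of 305 cells with Ren1 at 30 per 10,000 or more, 26 lacked all 4 of the supporting genes, 21 more had a Ptprc UMI, 16 a Pecam1 UMI, 11 a Cdh5 UMI, 5 too much Umod and 9 too much Gpx3, in that order. The cells just inside the threshold, 21 cells at 30 to 40 per 10,000, had Rgs5 at 38.6 and Acta2 at 94.1. The 47 cells just outside, at 20 to 30, had Rgs5 at 40.4 and Acta2 at 80.2, and Akr1b7 was detected in 51.1% of them against 57.1% just inside. A further 9 cells with Ren1 at 1000 or more failed the rule, all with Akr1b7 and with at most 3 UMIs of Ptprc, Pecam1 or Cdh5, and they held 60096 Ren1 UMIs. The renin cells held 49.99, 53.6, 79.3 and 90.2% of all Ren1 UMIs in mice 1 to 4. Allowing 1 UMI each of Ptprc, Pecam1 and Cdh5 gave 29, 53, 158 and 6 cells in mice 1 to 4.

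Ren1 was also counted in cells that should lack it. T lymphocytes had a Ren1 UMI in 29.4, 16.03, 11.2 and 1.40% of cells in mice 1 to 4, at 0.365, 0.247, 0.188 and 0.0468 per 10,000 and median depths of 5952, 6310, 5896.5 and 2090 UMIs. Thinned to 1000 UMIs per cell, those shares were 5.77, 1.94, 2.16 and 0.204%. The neutrophil gate held 0.312, 3.40, 0.199 and 0.0653 Ren1 UMIs per 10,000 in mice 1 to 4, and the proximal tubule gate 0.350, 0.172, 8.77 and 0.0121, so mouse 2 and mouse 3 each had 1 class well above the lymphocytes. The threshold for single cells was 30. Scrublet, a doublet caller, called none of the 217 cells a doublet, but it made 107 of its 109 calls in mouse 2, and 0, 1 and 1 in mice 1, 3 and 4, so its calls were not relied on. Its highest scores, taken in a number set by library size, held 56 of the 217 renin cells (25.8%), 29 of the 35 with Ren1 at 1000 or more, and 8.63% of all cells. Whether these cells hold RNA of a second cell was not tested, and leaving them out lowered the mean Ren1 level over mice from 1258 to 422.8 per 10,000. In the cells at 1000 or more, the 6 podocyte markers summed to 1.96, 1.78, 1.72 and 2.38 per 10,000 in mice 1 to 4, and to 1.53, 1.98 and 1.48 in smooth muscle cells of mice 1 to 3. The 10 endothelial markers summed to 3.79, 2.82, 3.06 and 2.85, and to 4.28, 3.21 and 5.52 in smooth muscle. The 9 macrophage markers summed to 0.915, 1.19, 6.49 and 0.951, and to 1.21, 0.679 and 2.07 in smooth muscle, so mice 2 and 3 were above their smooth muscle cells.

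Renin cells were compared with Ren1-negative cells of the same vessels to ask which genes other than those of the rule differ. Smooth muscle cells had Acta2 and Myh11, no Ren1 and no Dcn, with 16, 32 and 356 cells in mice 1 to 3. The wider class of mural cells had at least 2 of Pdgfrb, Rgs5, Acta2 and Notch3, no Ren1 and no Dcn, with 22, 48 and 478 cells, and most smooth muscle cells are also in it. Pericyte and mesangial cells had Pdgfrb with Rgs5, Notch3 or Itga8, and no Myh11, with 8, 13 and 60 cells at median depths of 2830 to 4006 UMIs. All 3 classes passed the same exclusions as renin cells. Counts were summed per mouse and class and tested in edgeR with the mouse as a block, in mice 1 to 3 only, since mouse 4 had 5 renin cells. The 3 comparisons share the same renin cells and are not independent.

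Against smooth muscle cells, 93 genes were higher (1.37% of the 6786 genes tested) and 118 lower (1.74%) in renin cells, together 3.11%, at an adjusted p (Benjamini-Hochberg) under 0.05, leaving out the genes of the gates. Against mural cells, 66 of 7084 genes were higher (0.932%) and 94 lower (1.33%), together 2.26%. The genes that rose in both included the guidance protein Ntng1, the beta adrenergic receptor Adrb1 and the lysosomal protease Ctsb. Without the mouse block, 7 genes were called against smooth muscle and 2 against mural cells, where 211 and 160 were called with it. Against smooth muscle, leaving out mouse 2 gave 90 calls and leaving out mouse 3 gave 540; against mural cells, leaving out mouse 1 gave 246 and leaving out mouse 3 gave 401.

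Gja5, a gap junction protein shared by endothelium and renin cells, was higher in renin cells than in smooth muscle. Its level was 1.33, 1.07 and 1.11 per 10,000 in the renin cells of mice 1 to 3 and 1.46 in mouse 4, against 0, 0 and 0.0202 in smooth muscle. The log2 difference was 5.93 ± 0.44 (SE; edgeR quasi-likelihood test, adjusted p = 1.07e-05, 3 of 3 mice). Against mural cells, at 0.301, 0.321 and 0.0227, Gja5 was again higher in 3 of 3 mice but missed the threshold (adjusted p = 0.0945). In pericyte and mesangial cells it stood at 3.88, 1.96 and 0.184, so that it was above the renin cells in mice 1 and 2 and below them in mouse 3. Gja4, another gap junction protein, is also on the list of genes linked to juxtaglomerular cells but was lower in renin cells. It stood at 1.37, 1.36 and 0.992, against 2.56, 2.56 and 1.64 in smooth muscle. The log2 change of -0.86 had an adjusted p of 0.0317, which rose to 0.424 without mouse 2. It was 0.158 in DESeq2 and 0.0725 with the highest doublet scores left out.

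Of 20 tested genes of cyclic AMP signalling, 2 were higher than in smooth muscle and none was lower. The median log2 difference was -0.19 (0.01 over all genes tested), and 1.37% of all genes tested were higher. Adrb1, the receptor through which sympathetic nerves release renin, had 0.540, 0.295 and 0.363 UMIs per 10,000 in renin cells, against 0.0639, 0.0309 and 0.0270 in smooth muscle. It came from 76 UMIs in the renin cells and 10 in smooth muscle, and no UMI was seen in the 5 renin cells of mouse 4. Adrb1 rose by 3.52 ± 0.47 on the log2 scale against smooth muscle (adjusted p = 0.00106) and by 3.57 ± 0.44 against mural cells (adjusted p = 0.00132). Adcy3, an adenylyl cyclase, was the other gene, with a log2 difference of 1.41 ± 0.33 and an adjusted p of 0.0353 that missed the threshold without mouse 2 (0.349) or mouse 3 (0.0706), in DESeq2 (0.250) and with the highest doublet scores left out (0.0548). Without mouse 3, and with those scores left out, Adrb1 had too few counts to be tested, so none of the 18 tested genes of the list was higher. The G protein subunit Gnas and the kinase subunit Prkar1a did not pass in any of the 3 comparisons.

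Among phosphodiesterases, the enzymes that degrade cyclic nucleotides, 2 of 8 tested genes fell against each of smooth muscle and mural cells and none rose. Shares over all genes tested were 1.74% lower and 1.37% higher against smooth muscle, and 1.33% lower against mural cells. Pde5a, which degrades cyclic GMP, had 0.864, 1.57 and 0.145 UMIs per 10,000 in renin cells and 2.36, 3.21 and 0.533 in smooth muscle, lower in 3 of 3 mice (log2 change -1.42 ± 0.24, adjusted p = 0.0054). Pde4d, which degrades cyclic AMP, fell by 0.99 on the log2 scale (adjusted p = 0.0184, and 0.142 without mouse 2). Of 18 tested genes of calcium and cyclic GMP control, only Npr1, a natriuretic peptide receptor, passed against smooth muscle (log2 1.19 ± 0.28, adjusted p = 0.0358, 0.352 without mouse 2, 0.239 in DESeq2 and 0.146 with a smooth muscle class that allowed Ren1 up to 5 per 10,000). Prkg2, the kinase by which cyclic GMP restrains renin, stood at 1.62, 3.56 and 2.00 in renin cells and at 2.87, 3.24 and 1.61 in smooth muscle, with an adjusted p of 0.953. Of 5 tested genes of the renin-angiotensin system other than Ren1, none passed against smooth muscle or mural cells. Agtr1a, the angiotensin receptor, was at 1.94, 2.06 and 3.09 in renin cells and at 3.19, 3.34 and 3.39 in smooth muscle (adjusted p = 0.318).

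Ctsb was the granule gene that rose. It encodes cathepsin B, a protease of lysosomes and renin granules that can cut prorenin. It stood at 14.7, 17.4 and 10.9 per 10,000 in the renin cells of mice 1 to 3 and at 35.7 in mouse 4, against 2.11, 2.75 and 4.44 in smooth muscle. Ctsb rose by 2.16 ± 0.29 (log2, adjusted p = 0.0013) against smooth muscle and by 2.05 ± 0.28 (adjusted p = 0.0026) against mural cells. The groups did not overlap, but Ctsb is named here because it passed, and the share of all genes without overlap was not counted. It was the only gene to pass of 25 tested in the list of granule and lysosome genes against smooth muscle. The list's median was 0.12 against 0.01 over all genes, of which 1.37% were higher. The lysosomal membrane protein Lamp1 and the protease Ctsd differed from smooth muscle by 0.01 and 0.14 on the log2 scale.

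The largest rises fell on genes of varied function. Against smooth muscle the 10 with the largest log2 difference under the rule for named genes were Hmga2, Gja5, Ntng1, Sfrp2, Kirrel3, Dkk2, the gene listed only as ENSMUSG00000121733, Mapt, Niban1 and Col13a1. Hmga2, a chromatin protein best known from embryonic and dividing cells, had 124 UMIs in the renin cells of mice 1 to 3 and 1 in smooth muscle. The ratio of summed levels was 207, with an exact 95% counting interval of 36.5 to 8253. That interval pools UMIs over cells and mice and leaves out the variation between them. The Hmga2 level was 0.828, 0.921 and 0.411 in mice 1 to 3 and 1.46 in mouse 4. It was detected in 23.1, 22.9, 13.8 and 40% of renin cells. Ntng1, a membrane-anchored netrin relative that guides axons, was at 2.84, 1.90 and 1.4998 against 0, 0 and 0.0405 in smooth muscle (log2 5.56 ± 0.40, adjusted p = 1e-05) and 0, 0.0495 and 0.0369 in mural cells. Both genes were higher in 3 of 3 mice in each comparison.

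Of 15 tested matrix genes of mural cells, 2 rose against smooth muscle (Mgp and Col18a1) and 1 fell (Timp3). The shares over all genes tested were 1.37% and 1.74%. Mgp, an inhibitor of calcification in vessel walls, stood at 13.8, 13.8 and 58.1 per 10,000 in renin cells and at 1.09, 4.35 and 8.26 in smooth muscle (log2 2.58 ± 0.32, adjusted p = 0.000731). With a smooth muscle class that allowed Ren1 up to 5 per 10,000, its log2 difference was 1.71 and its adjusted p 0.182. Among the 10 largest rises, Col13a1, a transmembrane collagen, rose by 3.14 ± 0.32 (adjusted p = 0.000139). Sfrp2, an inhibitor of Wnt signalling, was at 2.63, 0.682 and 0.742 against 0, 0.0309 and 0.0236 in smooth muscle (log2 5.08 ± 0.43, adjusted p = 2.5e-05), yet in mural cells it was at 0.801, 4.05 and 0.0568 and did not pass (adjusted p = 0.920). Niban1, a stress-induced gene, was at 5.08, 6.23 and 2.79 against 0.383, 0.124 and 0.557 (log2 3.29 ± 0.45, adjusted p = 0.0044, and 0.632 without mouse 1). Dkk2, another Wnt inhibitor, also lost its call without mouse 1 (log2 3.76 in both fits, adjusted p 0.0021 with mouse 1 and 0.530 without).

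**Figure D2:**
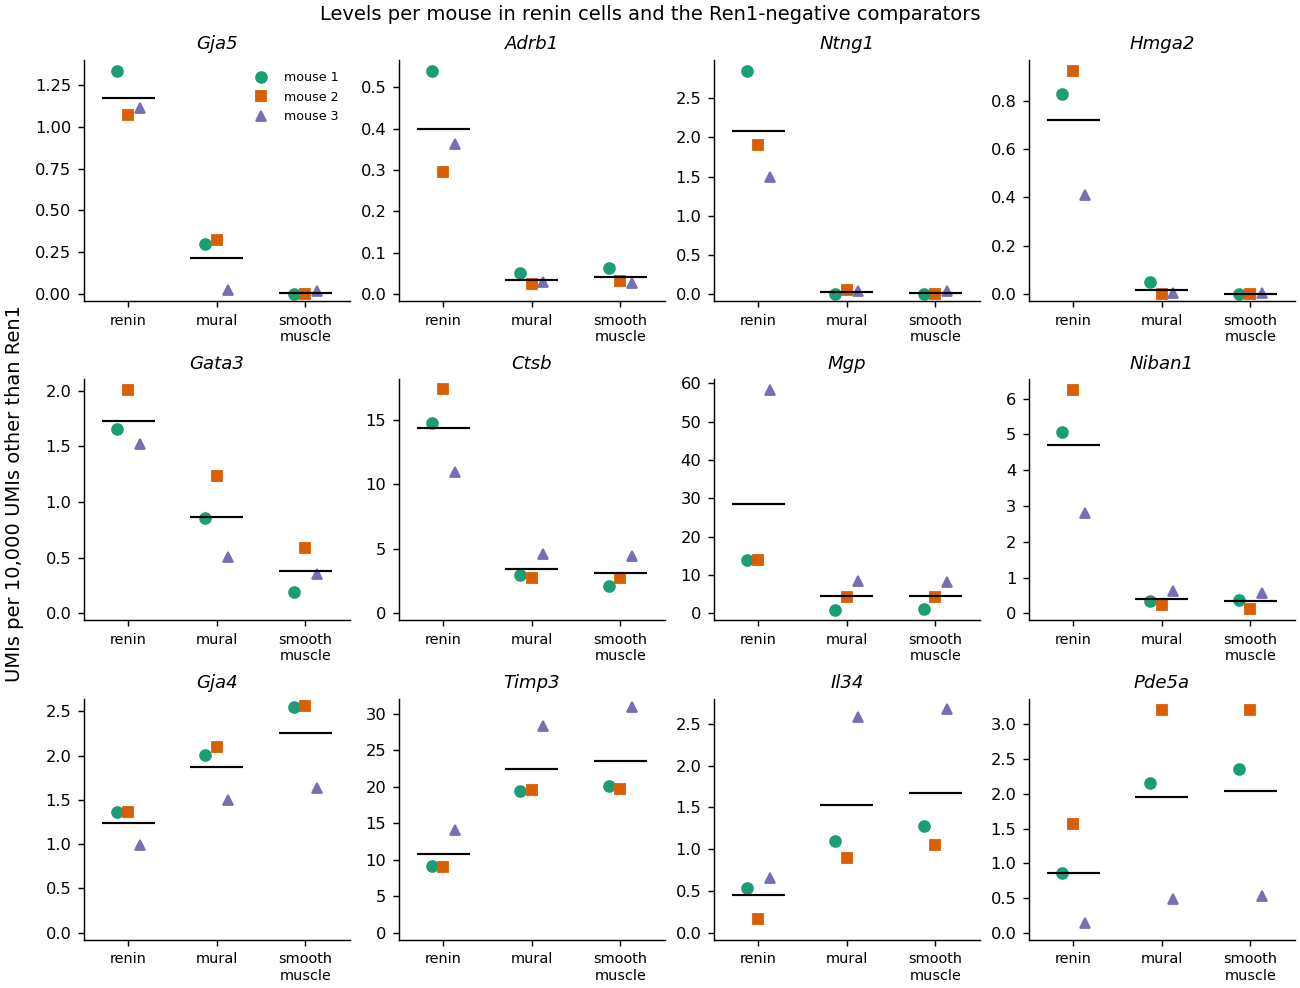
UMIs per 10,000 UMIs other than Ren1 in mice 1 to 3 (points) for 12 genes in renin cells, Ren1-negative mural cells and smooth muscle cells; black lines are means over the 3 mice. The upper 8 genes lay above both comparators in each mouse and the lower 4 below them, and Gja5 (against mural cells) and Gja4 (against mural cells) missed the threshold.

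The next group holds genes of the mesangium, the mural cells inside the glomerulus. Gata3, a transcription factor of mesangial and renin cells, stood at 1.66, 2.01 and 1.52 in renin cells, at 0.192, 0.587 and 0.354 in smooth muscle and at 0.851, 1.24 and 0.502 in mural cells. It rose by 2.08 ± 0.25 against smooth muscle (adjusted p = 0.000622) and by 1.14 ± 0.24 against mural cells (adjusted p = 0.0253). The call against mural cells was lost without mouse 3 (0.107), in DESeq2 (0.102) and with mouse 4 added (0.738). In mouse 4 Gata3 had no UMI in the 5 renin cells and stood at 2.64 in mural cells. Serpine2, a protease inhibitor, was at 6.23, 7.17 and 13.9 against 2.75, 2.84 and 1.79 in smooth muscle (log2 1.87 ± 0.33, adjusted p = 0.00899, and 0.327 with a smooth muscle class that allowed Ren1 up to 5 per 10,000). Together with Sfrp2, these were 3 of 6 tested mesangial genes that rose against smooth muscle, where 1.37% of all genes tested rose. Against pericyte and mesangial cells none of 9 rose and 4 fell (2.81% of all genes tested fell): Ptn, Tnc, Pdgfra and Agtr1a. Agtr1a (adjusted p = 0.0316) lost its call without mouse 1 (0.0881), without mouse 2 (0.249) and with no filter on low counts (0.0821). Against mural cells 1 of 7 mesangial genes rose (Gata3) and 1 fell (Tnc), with a median log2 difference of -0.17. Notch2, a receptor needed for renin cells to form, was at 3.02, 2.27 and 4.06 against 1.15, 1.11 and 1.77 in mural cells (log2 1.19 ± 0.20, adjusted p = 0.00932). None of 21 tested transcription factors linked to renin passed against smooth muscle or mural cells, where 3.11% and 2.26% of all genes tested passed.

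Il34, a growth factor for macrophages, was at 0.540, 0.166 and 0.653 in renin cells and at 1.28, 1.05 and 2.67 in smooth muscle (log2 -2.02 ± 0.27, adjusted p = 0.0011). Ackr3, a receptor that scavenges the chemokine Cxcl12, was at 0.288, 0.424 and 0.194 against 1.15, 1.51 and 1.21 (log2 -2.26 ± 0.28, adjusted p = 0.000622). Timp3, an inhibitor of matrix proteases, was at 9.22, 8.95 and 14.0 against 20.1, 19.7 and 30.98 (log2 -1.17 ± 0.21, adjusted p = 0.0082, and 0.178 without mouse 2). All 3 were lower in 3 of 3 mice, with no overlap between the groups. They were picked from the genes that passed, and the share of all genes without overlap was not counted. The others among the 10 largest falls against smooth muscle were Bmp6, Cnnm2, Mgat4a, Sgip1, Galnt15, Tmeff2, Adap2 and Aspn, with log2 changes of -1.92 to -2.39, and Galnt15 had an adjusted p of 0.241 without mouse 2. With the highest doublet scores left out, Cnnm2 (0.110) and Aspn (0.268) also missed the threshold, as did Kirrel3 among the rises (0.154). Against mural cells, Unc5c (log2 -3.38, with an adjusted p of 0.0811 where 1 UMI of an exclusion gene was allowed) and Col4a3 (-2.04) were also among the largest falls. Both were highest in the mural cells of mouse 1, at 2.00 and 4.01, where podocyte markers summed to 15.8 per 10,000 against 3.10 in the renin cells of that mouse. Thick ascending limb markers summed to 7.26 against 0.468 there, and macula densa markers to 5.76 against 0.324. The part of RNA of these cell types in the falls was not tested.

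Of 18 tested contractile genes, 1 rose (Sncg, log2 1.35 ± 0.25, adjusted p = 0.00933) and 1 fell (Des, log2 -0.87 ± 0.20, adjusted p = 0.0358, and 0.569 without mouse 2). This was against smooth muscle, where 1.37% of all genes tested rose and 1.74% fell. The contractile list summed to 345, 322 and 153 per 10,000 in renin cells and to 238, 316 and 176 in smooth muscle, so the groups overlapped. Detection of Acta2 and Myh11 defined the smooth muscle class, which fixes its side of this comparison. Against pericyte and mesangial cells, chosen for the absence of Myh11, 12 of 17 contractile genes rose and none fell, with a median log2 difference of 2.86 (0.07 over all genes tested). In that comparison 91 of 5017 genes were higher (1.81%) and 141 lower (2.81%), together 4.62%, with 123 called without the mouse block and 629 without mouse 3. Lmod1, which nucleates actin filaments in smooth muscle, had 1052 UMIs in renin cells and 3 in pericyte and mesangial cells. The ratio was 52.8 (exact 95% counting interval 18.0 to 256, which leaves out variation between cells and mice).

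Prkg2 and Crip1 rose against pericyte and mesangial cells. Prkg2 was 3.77 ± 0.66 higher on the log2 scale (adjusted p = 0.00736), at 0, 0 and 0.275 in the comparator. Crip1, a LIM protein of renin cells, was at 13.1, 8.59 and 4.79 against 0.388, 0.453 and 0.138 (log2 4.85 ± 0.54, adjusted p = 0.000793). Against smooth muscle Crip1 did not pass (adjusted p = 0.475). Among the falls, Ptn, a secreted growth factor, was at 0.036, 0.0368 and 0.0242 against 3.49, 3.77 and 0.551 (log2 -5.63 ± 0.58, adjusted p = 0.000793). Piezo2, a channel opened by stretch, was at 0.396, 0.553 and 0.726 against 10.9, 7.39 and 2.20 (log2 -3.11 ± 0.52, adjusted p = 0.00617). In the same comparison endothelial markers summed to 3.00 to 4.34 in renin cells and to 10.4 to 12.02 in pericyte and mesangial cells of mice 1 to 3; their part in it was not tested.

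Genes of the ER, where newly made renin is folded, were measured next. All 18 tested genes of the list of ER folding and secretion had a positive difference against smooth muscle, with a median of 1.37 on the log2 scale (0.01 over all genes tested), and 6 of the 18 passed: Pdia3, Pdia4, Hsp90b1, Herpud1, P4hb and Canx. Against mural cells 18 of 18 were positive with a median of 1.19, and Pdia4 and P4hb passed. The shares higher over all genes tested were 1.37% against smooth muscle and 0.932% against mural cells. Against pericyte and mesangial cells 17 of 17 were positive with a median of 1.06, and none passed. No gene of the list fell in any of the 3 comparisons. Several calls against smooth muscle were marginal. With the smooth muscle class that allowed low Ren1, 18 of 18 were positive with a median of 1.31, and 4 passed. Hsp90b1 (adjusted p = 0.119), Pdia3 (0.136) and Herpud1 (0.237) then missed the threshold. Pdia3 also missed it with a mitochondrial limit of 20% (0.0508) and with Ren1 left out of the scaling (0.0513). Canx missed it in DESeq2 (0.0524), where 6 of the 18 passed. With the highest doublet scores left out, 18 of 18 tested genes were positive against smooth muscle with a median of 0.98, and 7 passed. In that setting 17 of 17 were positive against mural cells with a median of 0.87, and 1 passed. Against pericyte and mesangial cells 15 of 16 were then positive with a median of 0.75, and none passed. The count turned on the mouse: without mouse 3, 18 of 20 tested genes passed against smooth muscle and 18 of 20 against mural cells, while without mouse 2 the counts were 1 and 0, and without mouse 1 they were 3 of 19 and 2 of 19.

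The summed level of the 20 genes was 120, 114 and 34.1 per 10,000 in the renin cells of mice 1 to 3 and 131 in mouse 4. In mural cells it was 18.4, 20.1, 30.5 and 27.5. Mice 1, 2 and 4 were thus several-fold above their mural cells and mouse 3 was close to them. In all cells other than renin cells it was 23.4, 24.7, 43.3 and 24.2. The renin cells of mice 1, 2 and 4 were above that level and those of mouse 3 below it. Pdia4, a disulfide isomerase, had 2.30, 2.78 and 0.290 UMIs per 10,000 in renin cells against 0.511, 0.309 and 0.105 in smooth muscle (log2 2.18 ± 0.32, adjusted p = 0.0021), higher in 3 of 3 mice. Hsp90b1, the chaperone GRP94, was at 16.2, 17.5 and 4.02 and in mouse 4 at 28.1, against 2.30, 2.66 and 2.72 in smooth muscle (log2 1.93 ± 0.42, adjusted p = 0.0390, 0.694 without mouse 1 and 0.179 without mouse 2). Hspa5, the chaperone BiP that binds unfolded proteins in the ER, was at 43.2, 34.2 and 7.40 and in mouse 4 at 21.9, against 1.60, 2.07 and 5.42 in smooth muscle. Its log2 difference of 2.98 had an SE of 0.96 and did not pass (adjusted p = 0.274).

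**Figure D3:**
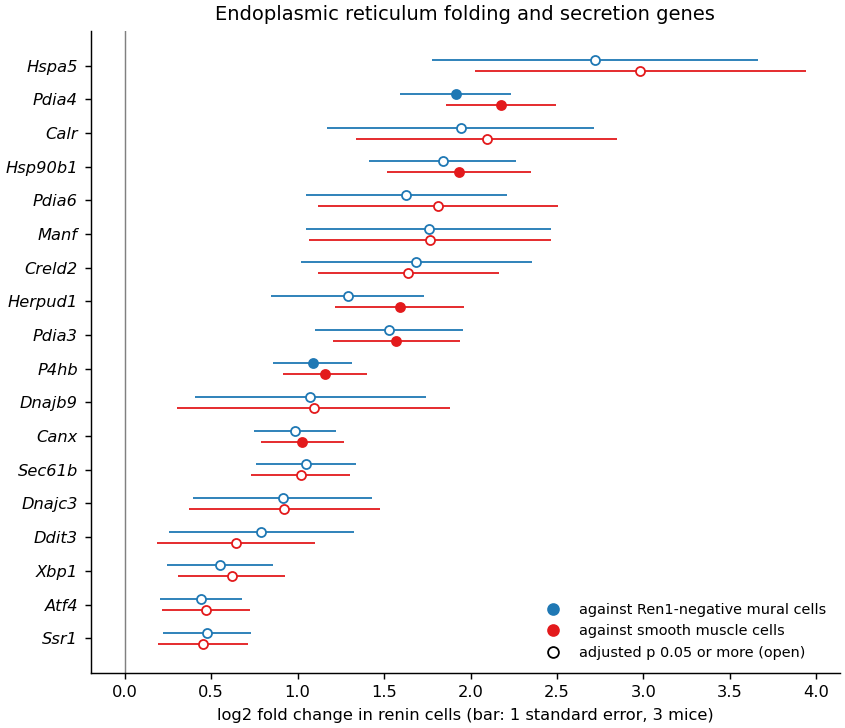
Log2 fold change of the 18 tested ER folding and secretion genes in renin cells against mural cells (blue) and smooth muscle cells (red). Bars are 1 standard error derived from the edgeR fit of mice 1 to 3, and filled points passed an adjusted p of 0.05. All estimates lie to the right of 0, with 2 and 6 of them past the threshold.

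The promoters of these genes are shown because 7 of the 19 list members with a RefSeq promoter carry an exact ER stress response element (CCAAT, 9 bases of any kind, then CCACG), the motif through which unfolded protein in the ER raises chaperone genes. It was searched on both strands in the 250 bases before the start, and 0.122% of 27025 promoters (33 of them) hold it. The 7 were Calr, Canx, Creld2, Dnajc3, Hsp90b1, Hspa5 and Pdia6. Capitals mark the element in 3 of them, from GRCm38.p6: Hspa5 at chr2:34771840-34772089 (plus strand), Hsp90b1 at chr10:86705445-86705694 (minus strand) and Pdia6 at chr12:17266339-17266588 (plus strand).
Hspa5: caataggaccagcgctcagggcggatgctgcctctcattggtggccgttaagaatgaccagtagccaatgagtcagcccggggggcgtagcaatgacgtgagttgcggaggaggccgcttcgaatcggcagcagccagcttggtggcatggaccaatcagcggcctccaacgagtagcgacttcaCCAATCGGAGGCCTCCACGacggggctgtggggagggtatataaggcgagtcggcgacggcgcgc
Hsp90b1: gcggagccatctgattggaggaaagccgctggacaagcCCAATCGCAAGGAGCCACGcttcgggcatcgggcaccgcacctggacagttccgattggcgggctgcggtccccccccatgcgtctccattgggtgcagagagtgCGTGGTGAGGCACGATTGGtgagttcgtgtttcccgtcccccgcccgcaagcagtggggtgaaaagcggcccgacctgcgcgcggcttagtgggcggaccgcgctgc
Pdia6: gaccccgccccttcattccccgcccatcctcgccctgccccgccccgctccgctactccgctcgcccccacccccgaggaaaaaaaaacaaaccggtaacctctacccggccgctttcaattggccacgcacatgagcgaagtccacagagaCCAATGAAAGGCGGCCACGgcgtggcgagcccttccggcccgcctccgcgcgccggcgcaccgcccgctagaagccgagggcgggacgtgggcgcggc
Hspa5 and Pdia6 have 1 match each, 65 and 98 bases before the start. Hsp90b1 has 2, on opposite strands, 212 and 107 bases before it. The matches are letters in these windows and do not show which factor was bound.

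Within the renin cells of mice 1 to 3, the sum of these genes was highest in the cells with the most Ren1. The cells were split at 100 and 1000 Ren1 UMIs per 10,000 into 7, 13 and 6 cells in mouse 1, 18, 18 and 12 in mouse 2 and 67, 57 and 14 in mouse 3. Of these, 21 cells lay near the border at 100 and 8 near that at 1000. Since Ren1 made the bands, what follows is a description. Over all mice, 29 of the 35 cells at 1000 or more had doublet scores among the highest, against 6 of the 92 below 100. All band levels below include these cells, and whether they hold RNA of a second cell was not tested. In mouse 1 the ER list summed to 15.9, 38.5 and 355 per 10,000 from the lowest to the highest band, and in mouse 2 to 22.9, 43.8 and 351. In mouse 3 it summed to 30.2, 34.4 and 45.2. Taken singly, all 20 genes were higher in the highest band than in the lowest in mice 1 and 2, and 14 of 20 in mouse 3. Mural cells of mice 1 to 3 stood at 18.4, 20.1 and 30.5, close to the lowest band of the same mouse.

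In the highest band, all 20 genes of the list were above the mural cells in mice 1 and 2, and 18 and 17 of them by more than 5 times. In mouse 3, 13 of 20 were above and 1 by more than 5 times, and in mouse 4 (3 cells), 17 were above and 10 by more than 5 times. The median ratio to mural cells was 13.7, 16.4, 1.46 and 4.41 in mice 1 to 4. Hspa5 led with 144 and 118 per 10,000 in mice 1 and 2, against 11.2 in mouse 3 and 26.6 in mouse 4. Single cells of the band ran from 4.35 to 435 in mouse 1, from 9.14 to 351 in mouse 2, from 1.29 to 50.3 in mouse 3 and from 18.3 to 29.6 in mouse 4, so the cells of mice 1 and 2 overlapped those of mice 3 and 4 at the low end. Sdf2l1, a cofactor of Hspa5, stood at 12.4, 12.6, 0.268 and 5.23, and Creld2, an isomerase induced by ER stress, at 6.54, 6.46, 0.0536 and 3.80. Ddit3, the transcription factor CHOP, was at 3.53, 3.12 and 0.804 in mice 1 to 3, against 0.200, 0.223 and 0.525 in mural cells; its symbol stands for more than 1 gene ID in the files, and the first was counted.

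Across single cells, Spearman's rho between Ren1 and the ER list was 0.81 (26 cells), 0.82 (48 cells) and 0.24 (138 cells) in mice 1 to 3, where both values of a cell share its depth. The 9 cells with Ren1 at 1000 or more that failed the rule were also counted. Ren1 picked them too, in the same libraries, so they are no independent view. Their list summed to 61.7 (3 cells), 396 (4 cells), 35.7 (1 cell) and 60.1 (1 cell) in mice 1 to 4. With so few cells this is a description: mouse 2 was high, mouse 1 was lower than in its renin cells and mouse 3 was low. The cells of the highest band had median depths of 17552.5, 13786.5, 14339 and 10013 UMIs and median mitochondrial shares of 2.32, 1.41, 1.14 and 0.509%.

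**Figure D4:**
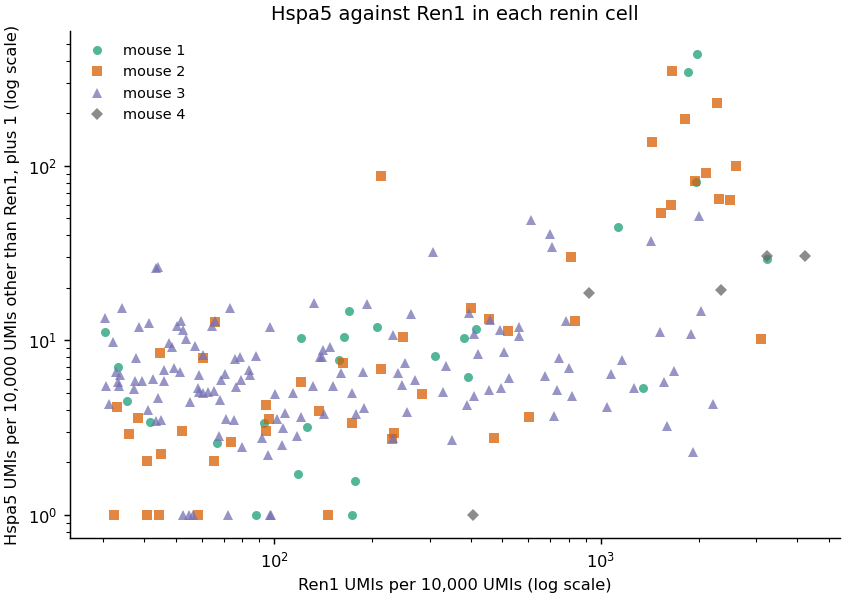
Hspa5 UMIs per 10,000 UMIs other than Ren1, plus 1 (log axis), against Ren1 UMIs per 10,000 UMIs (log axis) in each of the 217 renin cells, with colour and shape for the mouse. Above 1000 on the Ren1 axis the cells of mice 1 and 2 reach 435 and 351. Those of mouse 3 stay at or below 50.3. Of the 35 cells above 1000, 29 had doublet scores among the highest.

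Other genes were highest in the highest band in each of mice 1 to 3. Their levels too include the cells with the highest doublet scores. Akr1b7 stood at 2.85, 9.36 and 203 from the lowest to the highest band in mouse 1, at 4.49, 12.4 and 92.8 in mouse 2 and at 20.8, 62.8 and 197 in mouse 3. Ctsb stood at 2.10, 5.79 and 41.5 in mouse 1, at 5.12, 10.2 and 45.0 in mouse 2 and at 5.80, 9.84 and 29.3 in mouse 3. Unlike the ER list, both were several-fold higher in the highest band in mouse 3 as well. Adrb1 was at 1.70, 0.966 and 1.61 in the highest band of mice 1 to 3 and at or below 0.126 in the lowest. Gja5 was at 3.79, 2.75 and 3.54 against 0, 0.253 and 0.268, Hmga2 at 1.57, 3.20 and 2.14 against 0, 0.379 and 0.0179, and Niban1 at 15.2, 21.0 and 9.70 against 1.201, 0.506 and 1.23. The 36 genes of the granule and lysosome list summed to 76.2, 80.9 and 82.3 in the highest band and to 34.2, 37.5 and 42.1 in the lowest, and Ctsb made up most of that difference. Its other 35 genes summed to 34.8, 35.97 and 53.02 against 32.1, 32.4 and 36.3, so they differed little in mice 1 and 2.

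The contractile list, taken as a sum, was lowest in the cells with the most Ren1. It summed to 322, 441 and 198 per 10,000 from the lowest to the highest band in mouse 1, to 397, 395 and 98.6 in mouse 2 and to 181, 146 and 90.2 in mouse 3, with Spearman's rho to Ren1 across cells of -0.10 (26 cells), -0.41 (48 cells) and -0.20 (138 cells). Its member Sncg, a synuclein, was instead higher in the highest band, at 6.93, 6.32 and 6.004 against 2.85, 3.79 and 2.38 in the lowest. Tagln, an actin-binding protein, was at 54.7, 69.4 and 24.9 in the lowest band of mice 1 to 3 and at 22.0, 5.50 and 4.07 in the highest. Myh11, the smooth muscle myosin, was at 47.4, 70.4 and 23.5 against 26.9, 6.09 and 6.97. Gja4 was at 2.25, 1.64 and 1.47 against 0.654, 0.669 and 0.161. The cyclic AMP list hardly differed between the lowest and the highest band, at 32.6 and 30.9, 33.2 and 28.2, and 34.7 and 34.0 in mice 1 to 3.

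**Figure D5:**
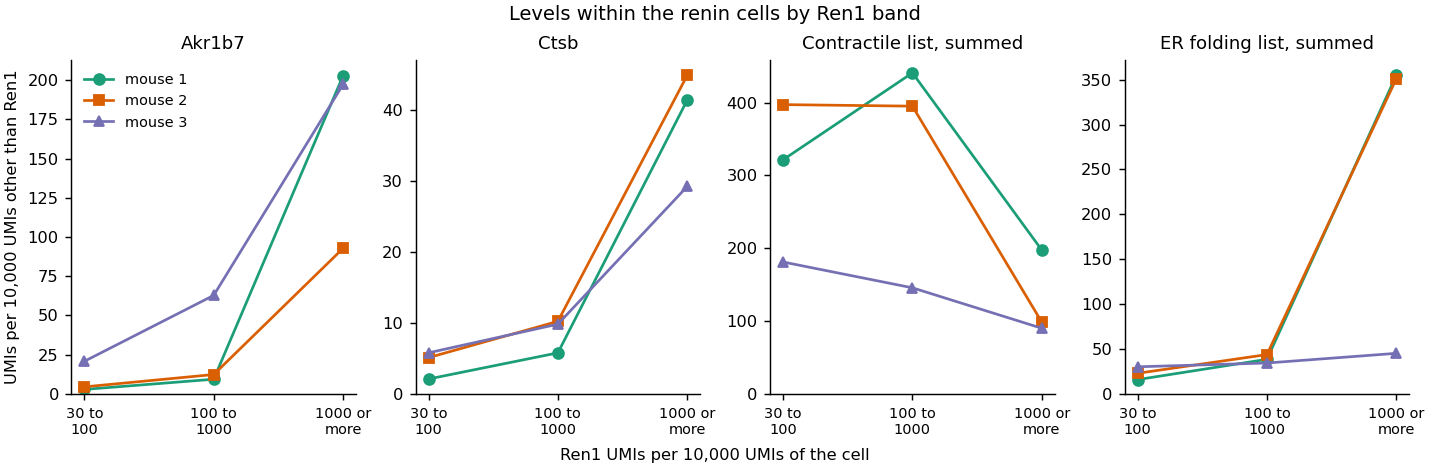
Level in renin cells of mice 1 to 3, as UMIs per 10,000 UMIs other than Ren1, by band of Ren1, for Akr1b7, Ctsb, the 20 contractile genes and the 20 ER folding and secretion genes; each point pools the cells of 1 mouse and band. Akr1b7 and Ctsb rise in all 3 mice, and the contractile genes are lowest in the highest band. The ER genes reach 355 and 351 in mice 1 and 2 but 45.2 in mouse 3. Cells with the highest doublet scores are included.

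Mouse 3 also differed from the others in immune response genes, in renin cells and their neighbours alike. The 16 genes of interferon response and MHC class I summed to 15.7, 14.3, 171 and 36.1 per 10,000 in the renin cells of mice 1 to 4 and to 12.9, 19.8, 172 and 30.03 in mural cells. The 18 inflammatory mediators summed to 6.16, 5.03, 60.8 and 8.75 in renin cells and to 5.36, 6.82, 57.8 and 12.6 in mural cells. The level of mouse 3 was thus common to both classes. Of 10 tested interferon and MHC class I genes, none passed between renin cells and either comparator of the vessel wall. Of 14 immediate early genes, which dissociation of tissue can raise, none passed in any comparison. Their median log2 differences were -0.47 against smooth muscle, -0.38 against mural cells and 0.74 against pericyte and mesangial cells, where 12 of the 14 were positive. Over all genes tested, 3.11, 2.26 and 4.62% passed in these 3 comparisons. At such shares, the absence of calls among 10 or 14 genes does not set these lists apart from all genes.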

How the data were processed

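Dissociated kidney cells of 4 mice were sequenced on the 10x platform, and UMI counts per gene and cell were deposited by the authors without normalization. Cell Ranger 9.0.1 and Seurat 4.1.1 stand in the submitters' processing notes; the genome build, annotation and strand setting are not stated in any source available to this work. The design text calls the 4 samples independent biological replicates. The renin cells, gene lists and tests were chosen with earlier results of these data known.

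For each mouse, the counts of a class were added up, and these sums were tested with edgeR 4.0.16 (R 4.3.3): TMM scaling, filterByExpr, robust quasi-likelihood fits and Benjamini-Hochberg adjustment over all genes. Same-numbered sums come from the same mouse, so the mouse was a block. Each SE was derived from the edgeR fit, as the size of the log2 difference divided by the square root of its F statistic. It is not the spread between mice. Classes with under 10 cells were left out, with a fallback to 5 for pericyte and mesangial cells. Named genes were the 10 largest rises and falls past the threshold of 0.05 that changed the same way in every mouse, with a mean CPM of at least 50 in the higher class, plus the members of the fixed lists. Genes of the gates were described, not tested. DESeq2 1.42.0, other filters, other cell gates, thinning and leaving out each mouse were tried; 4 alternatives were chosen after seeing the data (Ren1 left out of the scaling, a comparator with little Ren1, mouse 4 added, 1 UMI of an exclusion gene allowed). The script was tested on simulated data. Libraries shared at most 40 barcodes, and 1 renin cell's barcode was among the shared ones.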

Additional observations from a re-analysis of the deposited data

Results flagged for a closer look

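Of 12 values compared across the 4 mice, 4 had 1 mouse far from the others by Dixon's test at the 95% level, which chance alone flags in about 1 of 20 groups. Ren1 in renin cells was 2999.64 UMIs per 10,000 in mouse 4, against 440 to 808 in the others, and Akr1b7 was 551 per 10,000 UMIs other than Ren1 in mouse 4, against 30.01 to 64.1. Both genes were used to choose the cells and both values rest on the 5 renin cells of mouse 4, so they are given as a description. The interferon response and MHC class I genes summed to 171 in mouse 3, against 14.3 to 36.1, and the mural cells of mouse 3 stood at 172. The inflammatory mediators summed to 60.8 in mouse 3, against 5.03 to 8.75, and its mural cells stood at 57.8.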

How the results depend on the processing

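With the mouse as a block, 160 genes were called against mural cells, 211 against smooth muscle and 232 against pericyte and mesangial cells. With no replicate block the counts were 2, 7 and 123. With no filter on low counts they were 550, 404 and 539. With cells thinned to 1000 UMIs they were 18, 12 and 19, over far fewer tested genes. Leaving out each mouse gave 131 to 401, 90 to 540 and 173 to 629. Against mural cells, requiring Ren1 at 100 per 10,000 gave 261, leaving out the highest doublet scores 100, and a comparator with Ren1 under 5 per 10,000 gave 277. DESeq2 gave 121, 145 and 230. Of 1667 alternatives for 126 named gene results, 1462 kept direction and call, 205 kept the direction and lost the call, and none reversed. The largest rises and falls were named only if they changed the same way in every mouse, so few reversals could occur. With no replicate block 83 calls were lost, and without mouse 2 there were 34 losses. With cells thinned to 1000 UMIs, 21 kept the call and 16 lost it. The other named results had too few counts to be tested there and are not among the alternatives. The mean renin cell share ranged from 0.317 to 0.659% and the mean Ren1 level from 677 to 1531 per 10,000 when a mouse was left out. The cause of these shifts was not tested. Only 3 mice entered the tests, and mouse 3 gave most of the cells. Without mouse 4 the fits are those reported, since mouse 4 was not in them.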
